A study of Mus musculus with 18 samples.

Results

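The effect of eating less of a low-fat diet was examined in the liver of 6 male mice of the inbred strain C57BL/6J at 62 weeks of age. The LF mice (n = 3) ate a low-fat diet with 10% fat without limit, and the LF+CR mice (n = 3) ate the same diet with 30% calorie restriction, set each week from what the LF mice had eaten. Both regimens began at 5 weeks of age and every mouse lived alone, so that the comparison is of long-term restriction with free feeding. The 6 arrays were taken by their sample titles, LF_1 to LF_3 and LF+CR_1 to LF+CR_3, from the 18 arrays of the series. Mice on a high-fat diet with 60% fat, fed without limit (HF, n = 3) or with 30% calorie restriction (HF+CR, n = 3), served to test whether the response differed between the diets. Mice with a running wheel on the low-fat (LF+Ex, n = 3) or high-fat diet (HF+Ex, n = 3) enter only the estimate of the spread, which all 18 arrays share. No genetic change is named for any group. The RNA came from the whole organ, so that fewer cells of a type and less RNA per cell cannot be told apart. The labels give neither the hour of sampling nor the fed state, and their part in the results was not tested.

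The liver makes cholesterol from acetyl-CoA through mevalonate and squalene, and fatty acids from acetyl-CoA through malonyl-CoA. Both pathways are under sterol regulatory element-binding proteins (SREBPs), which are released from the endoplasmic reticulum when sterols are low or insulin is high and which bind beside the factor NF-Y on many of their promoters. Fatty acid breakdown is under the nuclear receptor PPAR-alpha. Many liver genes also differ between the sexes in rodents, because growth hormone is released in sharp pulses in males and more evenly in females and is read through STAT5.

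Of 14201 genes tested, 791 passed the threshold of an adjusted p under 0.05 in limma (5.57%), with 327 higher (2.3%) and 464 lower (3.27%) in LF+CR. Most measured enzymes of lipid synthesis rose, 6 of 8 and 8 of 10 in the lists of cholesterol synthesis and 11 of 13 in that of fatty acid synthesis, and 11 of 18 male-biased genes fell. Most of the 791 changes were small. The median size was 0.42 on the log2 scale among the 791 genes and 0.085 among all genes, 493 of the 791 were under 0.5, and 34 rises and 49 falls were over 1. The values of the LF and LF+CR arrays did not overlap for 779 of the 791 genes, against 20.2% of all genes tested. The median log2 fold change of all genes was -0.0086.

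**Figure D1:**
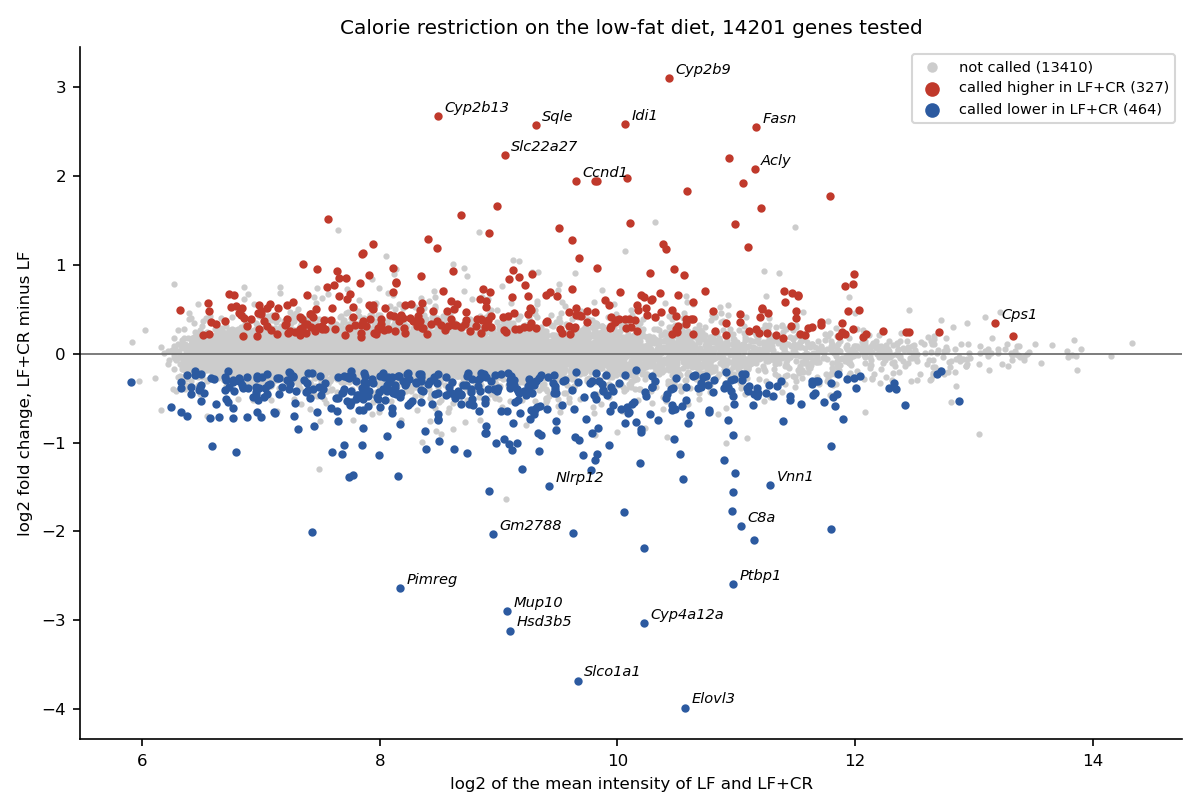
Each point is 1 of 14201 genes, placed by the log2 of its mean intensity in LF and LF+CR (horizontal) and its log2 fold change, LF+CR minus LF (vertical). Red points are the 327 genes called higher, blue points the 464 called lower and grey points the others. The largest rises include Cyp2b9 (3.10) and Idi1 (2.58), and the largest falls Elovl3 (-3.98) and Slco1a1 (-3.68).

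The arrays did not weigh equally. LF+CR 2 lay far out on the first principal component of the 18 arrays (23.6, against 4.02 or less on the other 5 arrays of these groups), and among the 791 genes it was the restricted array farthest from the LF mean for 440, against 257 for LF+CR 1 and 94 for LF+CR 3. LF 1 and LF+CR 1 carried transcripts of the exocrine pancreas, with the colipase gene Clps at 260 and 386 against 52.6 to 59.9 in the other 4 mice. The clock difference, log2 Arntl minus log2 Dbp, ran from -4.03 to -1.88 in LF and from -4.32 to -2.57 in LF+CR, so that the groups overlapped. Leaving out 1 of the 6 arrays gave 446 called genes at the lowest (without LF+CR 1) and 915 at the highest (without LF+CR 3), with 477 without LF 3. The fit without the 4 arrays of the series that carry pancreatic transcripts, LF 1 and LF+CR 1 among them, called 240 genes, and the fit of the 6 arrays alone called 189. Where leaving out a single array ended the call of a gene described in full, that array is named. Intensities are listed in the order of arrays 1, 2 and 3 of each group.

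Cholesterol synthesis rose along nearly its whole length. Of 8 measured enzymes from acetyl-CoA to squalene 6 rose, and of 10 from squalene to cholesterol 8 rose, with none lower, and the medians of the lists were 1.06 and 1.38 on the log2 scale. All 14 calls had groups without overlap, as did 779 of all 791 called genes. The number of calls in the first list was 6 whichever of the 6 arrays was left out, and in the second list 8 or 9. Without the arrays with pancreatic transcripts, and likewise with only the groups compared, the lists held 6 and 7 calls.

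Promoter stretches of 7 of the genes that rose, 6 of cholesterol synthesis and Fasn of fatty acid synthesis, are shown because the lists moved together. The stretches are from RefSeq on GRCm38.p6, in lower case from 5′ to 3′ on the strand of the gene, and lie before the start site. Capitals mark CCAAT, the box bound by NF-Y, read on either strand (ATTGG is the same box on the other strand), and in Hmgcs1 also CACCCCA, a core of sterol response elements.
Hmgcs1: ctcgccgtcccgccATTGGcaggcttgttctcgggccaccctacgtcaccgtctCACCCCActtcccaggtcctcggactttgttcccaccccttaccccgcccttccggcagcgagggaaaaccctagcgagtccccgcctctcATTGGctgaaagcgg
Idi1: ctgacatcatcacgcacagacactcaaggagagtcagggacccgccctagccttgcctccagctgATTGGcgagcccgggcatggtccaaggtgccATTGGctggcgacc
Nsdhl: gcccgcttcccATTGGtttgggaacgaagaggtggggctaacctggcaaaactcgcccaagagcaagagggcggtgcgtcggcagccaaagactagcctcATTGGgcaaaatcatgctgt
Lss: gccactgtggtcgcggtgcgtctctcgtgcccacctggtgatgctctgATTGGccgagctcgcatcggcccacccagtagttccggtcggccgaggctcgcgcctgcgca
Cyp51: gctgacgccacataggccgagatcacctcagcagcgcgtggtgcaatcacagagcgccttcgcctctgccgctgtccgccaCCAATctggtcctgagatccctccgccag
Msmo1: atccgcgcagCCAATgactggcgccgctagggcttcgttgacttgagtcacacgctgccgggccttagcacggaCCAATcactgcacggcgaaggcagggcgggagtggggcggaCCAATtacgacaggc
Fasn: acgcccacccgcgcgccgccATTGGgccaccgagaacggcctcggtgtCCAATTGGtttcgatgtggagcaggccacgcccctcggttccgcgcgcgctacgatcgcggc
The stretches lie at chr13:119690161-119690320 (plus strand), chr13:8885496-8885605 (plus), chrX:72918401-72918520 (plus), chr10:76531495-76531604 (plus), chr5:4104698-4104807 (minus), chr8:64733619-64733748 (minus) and chr11:120824548-120824657 (minus). In Fasn the capitals CCAATTGG are a pair of boxes, 1 on each strand, that overlap. Over the window from 250 bases before to 50 bases after the start site, all 15 cholesterol synthesis genes with a promoter in the table held CCAAT on either strand, and 8 of 11 fatty acid synthesis genes did. Counts by list take every tested member with a promoter, called or not. The box was in 42.1% of the tested genes with a promoter (11396 genes, any of its promoters counting) and in 37.4% of all 32851 promoters. It was in 158 of 269 genes called higher (58.7%), in 139 of 247 when the lipid synthesis lists were left out (56.3%), and in 161 of 383 genes called lower (42.0%). CACCCCA on either strand was in 1 of the 15 cholesterol synthesis genes, Hmgcs1, and in 9.92% of the tested genes. GGGCGG, the Sp1 box, on either strand was in 13 of the 15 and in 62.3% of the tested genes. None of these motifs shares bases with another in the stretches shown, apart from the pair of boxes in Fasn. A pair of STAT half-sites, TTCNNNGAA with N for any base, was counted in the same windows. It was in 1 of 14 male-biased and 3 of 14 female-biased genes. It was in 18 of 383 genes called lower (4.7%), 24 of 269 called higher (8.92%) and 8.36% of the tested genes. CCAAT was in 4 of the 14 male-biased and 5 of the 14 female-biased genes. These are matches of letters, and binding was not measured.

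On the way to squalene, Hmgcs1, which condenses acetyl units ahead of mevalonate, read 1697, 1051 and 1265 on the LF arrays and 2957, 3522 and 2679 on the LF+CR arrays. Every restricted array lay above every LF array (log2 fold change 1.20, SE 0.23, adjusted p = 0.0061). Pmvk, the kinase that makes mevalonate diphosphate, read 239, 269.9 and 286 on the LF arrays and 778, 654 and 678 on the LF+CR arrays and was the most certain of this list (log2 fold change 1.36, SE 0.11, adjusted p = 8.6e-06). Idi1, which isomerises isopentenyl diphosphate, read 253, 222 and 446 on the LF arrays and 1721, 1997 and 1801 on the LF+CR arrays, the farthest shift of the list (log2 fold change 2.58, SE 0.27, adjusted p = 4.1e-05). Fdps, which builds farnesyl diphosphate, read 688, 566 and 826 on the LF arrays and 3156, 3523 and 2998 on the LF+CR arrays (log2 fold change 2.21, SE 0.27, adjusted p = 0.0002). Again no arrays overlapped, and LF 3 was the highest LF array in both genes. Fdft1, which makes squalene, rose by 0.91 and Mvk, mevalonate kinase, by 0.56 (adjusted p = 0.0011 and 0.0012). On their brightest probe sets Mvd and Ggps1 did not pass, with log2 fold changes of 0.16 and 0.14 (adjusted p = 0.49 and 0.34). Another probe set of Mvd, not tested by itself, had a mean of 79.1 in LF, under the dim threshold, and of 166 in LF+CR, and another of Ggps1 moved by -0.21. Ggps1 makes geranylgeranyl diphosphate, which leaves the route to squalene.

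On the way from squalene, Sqle, the epoxidase that starts it, read 153, 132 and 245 on the LF arrays and 1097, 1089 and 1100.3 on the LF+CR arrays. The restricted arrays were almost equal, while LF 3 stood above LF 1 and LF 2 (log2 fold change 2.57, SE 0.30, adjusted p = 0.00015). Lss, which closes the ring to lanosterol, read 185, 227 and 224 on the LF arrays and 479, 558 and 478 on the LF+CR arrays (log2 fold change 1.19, SE 0.10, adjusted p = 8.6e-06). Nsdhl, a sterol dehydrogenase, read 353, 426 and 521 on the LF arrays and 1605, 1967 and 1634 on the LF+CR arrays (log2 fold change 1.97, SE 0.23, adjusted p = 0.00015). In both genes every restricted array was far above the highest LF array. The demethylases Cyp51 and Msmo1 rose by 1.94 and 1.94, the final reductase Dhcr7 by 1.56, the desaturase Sc5d by 0.90 and Hsd17b7 by 0.70, with adjusted p from 4.1e-05 (Sc5d) to 0.0095 (Hsd17b7). Other probe sets of Sc5d moved by only 0.041 and -0.093. Tm7sf2 (-0.03, adjusted p = 0.95) and Ebp (0.24, adjusted p = 0.13) did not pass.

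Of 16 genes of sterol sensing, uptake and efflux only Insig1 and Srebf2 passed, both higher, and the median of the list was 0.015. Insig1, which holds SREBPs in the endoplasmic reticulum and is itself their target, read 344, 343 and 474 on the LF arrays and 656, 705 and 737 on the LF+CR arrays without overlap (log2 fold change 0.84, SE 0.10, adjusted p = 0.00021). Srebf2, the SREBP gene tied to cholesterol synthesis, rose by 0.26 (SE 0.06, adjusted p = 0.018), and without LF 1, LF 3 or LF+CR 3 the call was lost (adjusted p up to 0.075). Outside the lists, Tmem97, which encodes a sterol-responsive membrane protein, read 380.4, 445 and 468 on the LF arrays and 787, 899 and 759 on the LF+CR arrays (log2 fold change 0.90, SE 0.11, adjusted p = 0.00024). Tmem97 was chosen after its values were seen.

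**Figure D2:**
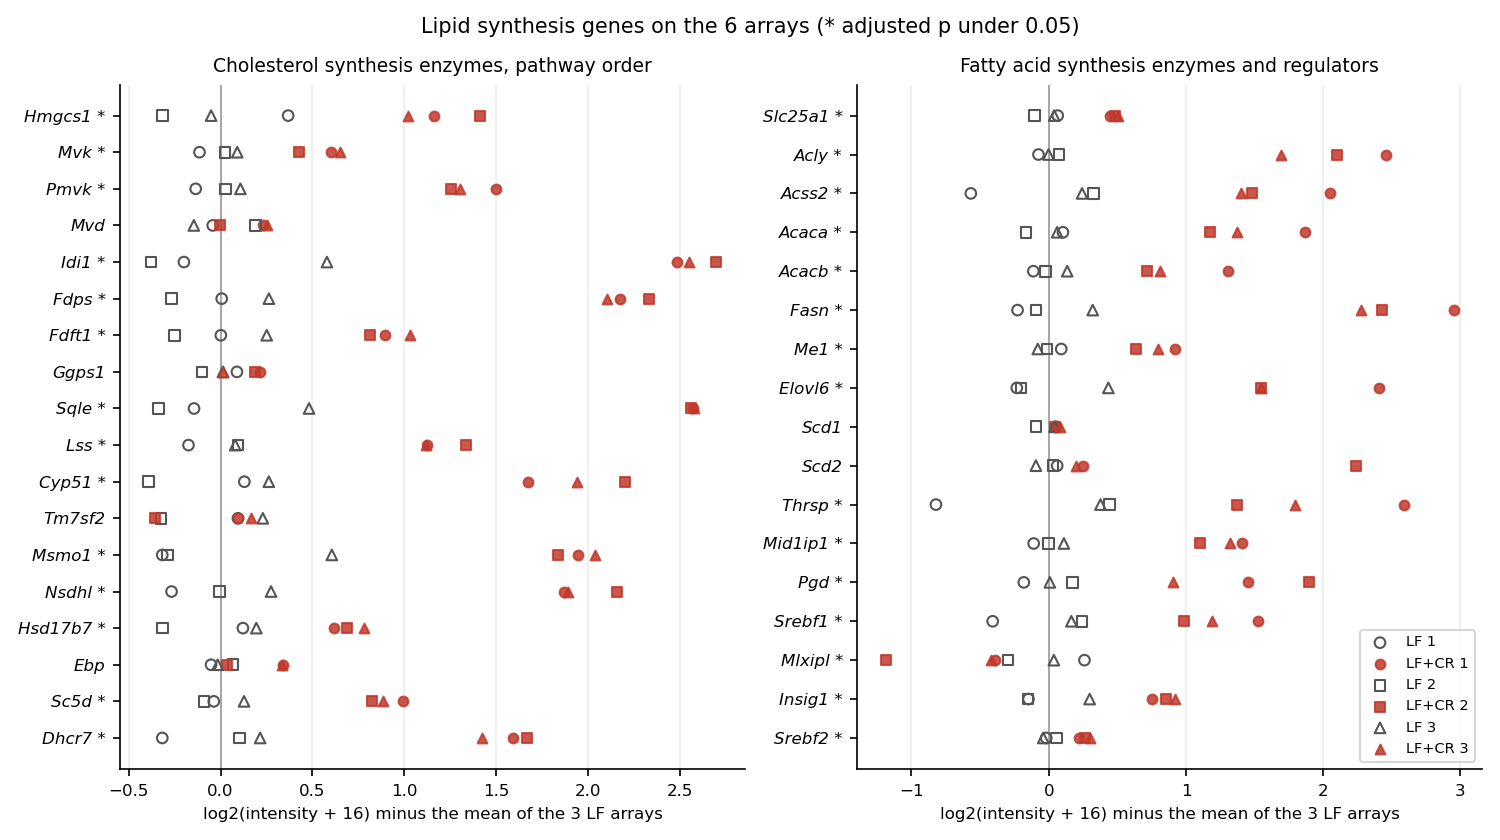
Each row is a gene and each symbol 1 array, placed at its log2(intensity + 16) minus the mean of the 3 LF arrays. Open grey symbols are LF and filled red symbols LF+CR, with circles, squares and triangles for arrays 1, 2 and 3, and an asterisk marks an adjusted p under 0.05. Most red symbols of cholesterol synthesis (left) and fatty acid synthesis (right) lie to the right of all grey ones. Scd2 is high on LF+CR 2 alone.

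Fatty acid synthesis rose too, with 11 of 13 measured members higher, none lower and a list median of 1.42 on the log2 scale. The list held 9 to 11 calls with 1 array left out and 7 without the arrays that carry pancreatic transcripts. Acly, which splits citrate into cytosolic acetyl-CoA, read 801, 891 and 844 on the LF arrays and 4722, 3668 and 2759 on the LF+CR arrays. Every restricted array was far above every LF array (log2 fold change 2.08, SE 0.14, adjusted p = 1.2e-06). Fasn, fatty acid synthase, read 550.1, 605 and 811 on the LF arrays and 5104, 3541 and 3195 on the LF+CR arrays (log2 fold change 2.55, SE 0.19, adjusted p = 2.2e-06). The carboxylase Acaca, which makes malonyl-CoA, read 611, 505 and 593 on the LF arrays and 2109.7, 1302 and 1492 on the LF+CR arrays (log2 fold change 1.47, SE 0.21, adjusted p = 0.00072). In all 3 genes LF+CR 1 was the highest array and the groups were apart.

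The suppliers of the pathway rose as well. Slc25a1, the mitochondrial citrate carrier, read 1562, 1386 and 1534 on the LF arrays and 2040.0, 2096 and 2125 on the LF+CR arrays, a smaller shift with little spread (log2 fold change 0.48, SE 0.05, adjusted p = 0.0001). Acss2, which activates acetate, rose by 1.65 (adjusted p = 0.00047), and Me1 and Pgd, which supply NADPH, rose by 0.79 and 1.42 (adjusted p = 0.0066 and 0.0047). Tkt, transketolase of the pentose phosphate pathway, read 2081, 2025 and 2073 on the LF arrays and 3481, 3465 and 3152 on the LF+CR arrays (log2 fold change 0.70, SE 0.12, adjusted p = 0.0031) and was chosen after its values were seen. Elovl6, which elongates palmitate, read 542, 554 and 871 on the LF arrays and 3464, 1896 and 1901 on the LF+CR arrays (log2 fold change 1.83, SE 0.26, adjusted p = 0.00067). LF+CR 1 stood well above the other restricted arrays there. Mid1ip1, a partner of acetyl-CoA carboxylase, rose by 1.28 (adjusted p = 0.00015). Thrsp, its paralog, read 459, 1126 and 1074 on the LF arrays and 5030.4, 2155 and 2900.4 on the LF+CR arrays (log2 fold change 1.92, SE 0.49, adjusted p = 0.031), and without LF 1, LF 3 or LF+CR 1 the call was lost (adjusted p up to 0.13). Acacb, the mitochondrial carboxylase, rose by 0.95, but without LF+CR 1 the call was lost (adjusted p up to 0.069).

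The stearoyl-CoA desaturases did not pass. Scd1 read 15477, 14004 and 15388 on the LF arrays and 15456, 15394 and 15840.2 on the LF+CR arrays and the groups overlapped (log2 fold change 0.06, adjusted p = 0.86). These are among the highest intensities of the arrays, and how close they are to saturation is not given. A second probe set of Scd1, not tested by itself, had a mean of 5673 in LF and 7095 in LF+CR (log2 fold change 0.33). Scd2 read 167, 163 and 149 on the LF arrays and 193, 811 and 186 on the LF+CR arrays, high on LF+CR 2 and near the LF level on the other restricted arrays (log2 fold change 0.90, adjusted p = 0.23).

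The 8 lipogenic transcription factors split. Srebf1, the SREBP gene tied to fatty acid synthesis, read 583, 924 and 875 on the LF arrays and 2266, 1555 and 1794 on the LF+CR arrays without overlap (log2 fold change 1.23, SE 0.20, adjusted p = 0.0014). Mlxipl, which encodes the carbohydrate-response factor ChREBP, read 1581, 1069 and 1353 on the LF arrays and 998, 570.0 and 978 on the LF+CR arrays (log2 fold change -0.67, SE 0.18, adjusted p = 0.044), so that it moved the other way. The groups were apart, though LF 2 and LF+CR 1 nearly met, and without LF 1, LF 3 or LF+CR 2 the call was lost (adjusted p up to 0.17). Its partner Mlx rose by 0.28, and without LF 1, LF 3, LF+CR 1 or LF+CR 3 the call was lost (adjusted p up to 0.1). Nr1h3, Usf1, Usf2, Nr0b2 and Ppargc1b did not pass.

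Of 13 genes of fatty acid activation and elongation 4 rose and 2 fell. Acsl3, an acyl-CoA synthetase, read 211, 169 and 191 on the LF arrays and 460.2, 556 and 451 on the LF+CR arrays (log2 fold change 1.29, SE 0.12, adjusted p = 1.8e-05) and its groups were apart. Elovl3, an elongase that is also counted among the male-biased genes, fell and is given there. Acsl5 and Acsl4, which also activate fatty acids, and Tecr, a reductase of elongation, rose by 0.49, 0.78 and 0.31. The cytosolic thioesterase Acot1 fell by 1.41. These 4 calls each needed certain arrays, with adjusted p up to 0.089 (Acsl5), 0.12 (Acsl4), 0.069 (Tecr) and 0.14 (Acot1) when 1 array was left out, LF+CR 1 in each case among those that ended the call. Of 11 triglyceride synthesis genes Gpam, the mitochondrial glycerol-phosphate acyltransferase, rose (log2 fold change 0.68, SE 0.12, adjusted p = 0.0028), and Gpd1 and Agpat2 fell by 0.38 and 0.52. Both falls were lost without LF 1, LF 3 or LF+CR 1.

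Citric acid cycle genes rose in part. Of 20 members of the pyruvate dehydrogenase complex and the citric acid cycle 8 rose and none fell, and all 20 had a log2 fold change above 0, with a median of 0.16. Dlat, the acetyltransferase of pyruvate dehydrogenase, read 600.1, 427 and 535 on the LF arrays and 1305, 1072 and 961 on the LF+CR arrays (log2 fold change 1.07, SE 0.13, adjusted p = 0.0002). Idh3a, a subunit of the NAD-dependent isocitrate dehydrogenase, read 823, 742 and 797 on the LF arrays and 1152, 1281 and 1049.9 on the LF+CR arrays (log2 fold change 0.55, SE 0.08, adjusted p = 0.00052). Both genes had every restricted array above every LF array, but 3 other probe sets of Idh3a moved by 0.12, 0.059 and 0.047 only. Idh1, the cytosolic NADP-dependent form, rose by 0.48 and Mdh2, malate dehydrogenase, by 0.48. Dld, the shared dehydrogenase subunit, rose by 0.39, while another of its probe sets moved by -0.0048. Pdhb, Suclg2 and Idh2 rose by 0.35, 0.22 and 0.50, and these calls were lost with LF 3 or LF+CR 1 left out. Citrate synthase, Cs, missed the threshold (log2 fold change 0.56, SE 0.16, adjusted p = 0.053). Mpc1, a subunit of the carrier that brings pyruvate into mitochondria, read 3609, 3649 and 3723 on the LF arrays and 4483, 4659 and 4186 on the LF+CR arrays (log2 fold change 0.28, SE 0.05, adjusted p = 0.0043). The list held 5 to 9 calls with 1 array left out and 3 without the arrays that carry pancreatic transcripts.

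Of 15 glycolysis and glycogen genes 5 rose and none fell, with a median of 0.22. Gbe1, the glycogen branching enzyme, read 901, 982 and 1085 on the LF arrays and 1583, 1463 and 1502 on the LF+CR arrays (log2 fold change 0.61, SE 0.12, adjusted p = 0.0051). Pgk1, phosphoglycerate kinase, rose by 0.36 (adjusted p = 0.0027). Pklr, the liver pyruvate kinase, read 324, 438 and 440.4 on the LF arrays and 993, 609 and 660.2 on the LF+CR arrays (log2 fold change 0.87, SE 0.19, adjusted p = 0.015), and without LF 1 or LF+CR 1 the call was lost (adjusted p up to 0.072). In all 3 genes the groups were apart. Tpi1 and the glycogen phosphorylase Pygl rose by 0.30 and 0.29 and lost their calls without LF 1 or LF 3. Without LF 1 the list held 2 calls, and without the arrays with pancreatic transcripts none. Of 15 genes of gluconeogenesis and the fasting response, Tat, which starts tyrosine breakdown and responds to glucocorticoids, read 2909.8, 2846 and 2792 on the LF arrays and 5175, 4557 and 4868 on the LF+CR arrays (log2 fold change 0.77, SE 0.12, adjusted p = 0.0014). Every restricted array was far above every LF array. Creb3l3, which encodes the fasting factor CREBH, read 2602, 2602 and 2653 on the LF arrays and 1804, 1826 and 2119 on the LF+CR arrays (log2 fold change -0.45, SE 0.06, adjusted p = 0.00039). G6pc, the glucose-6-phosphatase gene, read 3550.3, 2031 and 2191 on the LF arrays and 1195, 1093 and 1485 on the LF+CR arrays without overlap, but missed the threshold (log2 fold change -1.0, SE 0.32, adjusted p = 0.087). Pck1, the gate of gluconeogenesis, was at 6343, 6136 and 6872 on the LF arrays and 6759, 4679.7 and 6653 on the LF+CR arrays, with overlap (adjusted p = 0.79). None of 19 insulin signalling and FOXO genes passed, and their median was -0.061.

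Fatty acid breakdown genes lay lower. Of 16 peroxisomal and microsomal PPAR-alpha targets 6 fell and none rose, 15 of the 16 log2 fold changes were below 0, and the median was -0.25. Vnn1, a pantetheinase, read 3476, 3658 and 3875 on the LF arrays and 1286, 1111 and 1570.2 on the LF+CR arrays (log2 fold change -1.47, SE 0.17, adjusted p = 1.0e-04). Ephx2, which hydrolyses fatty acid epoxides, read 5941, 5644 and 6162 on the LF arrays and 4625, 4200.5 and 4601 on the LF+CR arrays (log2 fold change -0.40, SE 0.06, adjusted p = 0.0011). Crot, a peroxisomal carnitine acyltransferase, read 4956, 4466 and 4816 on the LF arrays and 2195, 3524 and 2953 on the LF+CR arrays (log2 fold change -0.74, SE 0.15, adjusted p = 0.0081). The groups were apart in these 3 genes. Acaa1a, a peroxisomal thiolase, fell by 0.39 (adjusted p = 0.0027), and the falls of Acot8 (0.34) and Pex11a (0.63) were lost when LF 1, LF 2 or LF+CR 1 was left out. Ppara itself read 2019, 1628 and 1920.1 on the LF arrays and 1090.2, 829 and 2406 on the LF+CR arrays, with LF+CR 3 above all LF arrays (adjusted p = 0.37).

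In mitochondria 5 of 18 oxidation genes fell and none rose, with a median of -0.14. Cpt1a, which admits fatty acids to mitochondria, read 3125, 2932 and 3696 on the LF arrays and 2246, 2017 and 2757 on the LF+CR arrays (log2 fold change -0.48, SE 0.11, adjusted p = 0.015), and without LF 3, LF+CR 1 or LF+CR 2 the call was lost (adjusted p up to 0.079). Cpt2, Slc25a20, Etfdh and Eci1 fell by 0.39, 0.42, 0.31 and 0.37. The first 3 act at the carnitine shuttle or the electron transfer from oxidation, and Eci1 is an isomerase. None of the 5 calls was left without LF 3, and 1 without LF+CR 1. The list held 1 call without the arrays with pancreatic transcripts and none with only the groups compared. In fatty acid uptake 2 of 12 genes fell, the transporter Slc27a2 (log2 fold change -0.53, SE 0.07, adjusted p = 0.00055) and the binding protein Fabp2 (log2 fold change -0.48, SE 0.10, adjusted p = 0.0094). Slc27a2 read 8557, 8815 and 9191 on the LF arrays and 6389, 5333 and 6738 on the LF+CR arrays, without overlap. Lpl, lipoprotein lipase, read 261, 364 and 293 on the LF arrays and 408, 1787 and 355 on the LF+CR arrays, high on LF+CR 2 only (adjusted p = 0.28).

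Lipid droplet genes fell, with 5 of 16 lower, 1 higher and a median of -0.25. G0s2, an inhibitor of the lipase ATGL, read 3864, 3789 and 2850.3 on the LF arrays and 394, 608 and 2119.6 on the LF+CR arrays (log2 fold change -2.09, SE 0.43, adjusted p = 0.0095). LF+CR 3 stood near the LF arrays while LF+CR 1 and 2 were far below. Mgll, monoglyceride lipase, read 2517, 2255 and 2577 on the LF arrays and 1293, 1533 and 1541 on the LF+CR arrays (log2 fold change -0.75, SE 0.10, adjusted p = 0.00026). Fitm1 and Fitm2, which shape droplets at the endoplasmic reticulum, fell by 0.93 and 0.62, and Plin5, a droplet coat protein, by 0.88 (adjusted p = 0.004, 0.00097 and 0.0068). Pnpla3, a target of SREBP-1c, read 78.4, 84.8 and 82.8 on the LF arrays and 121, 103 and 105 on the LF+CR arrays, with all LF arrays below the dim threshold, the 40th percentile of the array (88.22 to 97.574), so that it was at least 1.17-fold higher (adjusted p = 0.0027). The list held 6 calls with each array left out in turn. None of 16 apolipoprotein and lipoprotein assembly genes passed, and Apoa1 read 14879.5, 14729 and 15364 on the LF arrays and 14803, 14772 and 14692 on the LF+CR arrays.

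**Figure D3:**
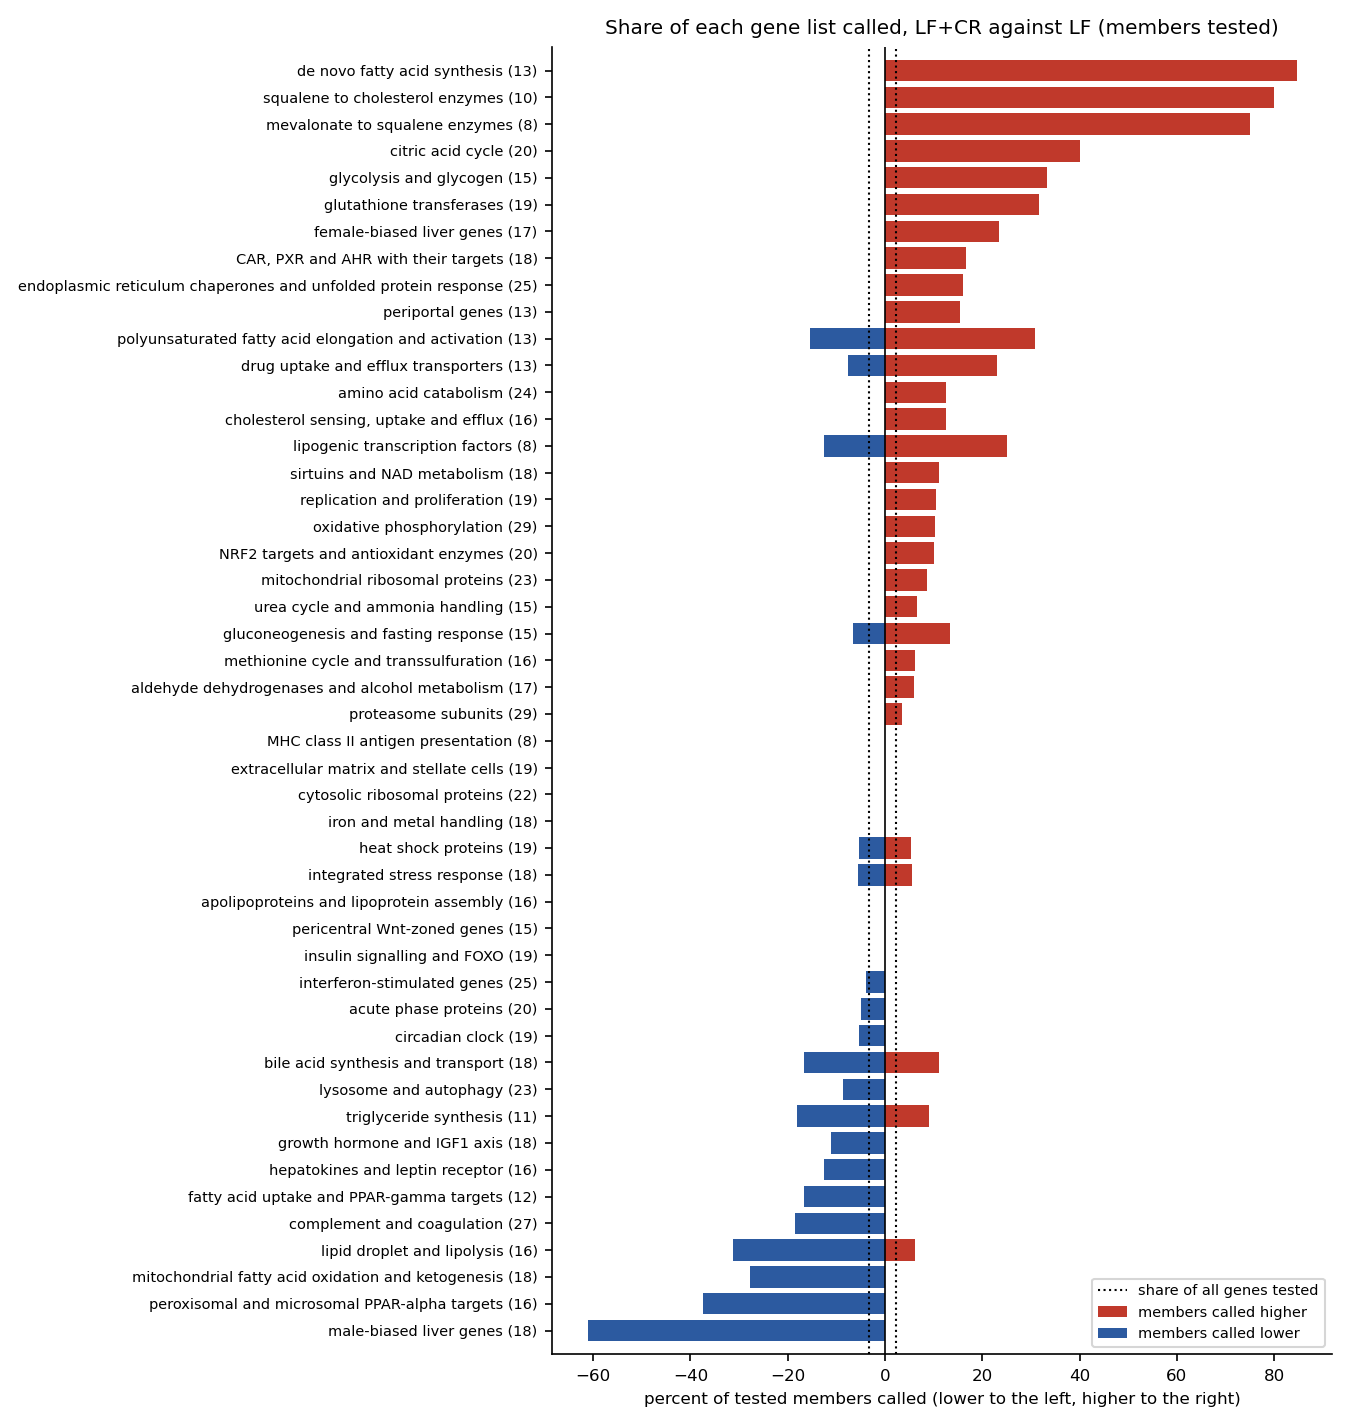
Bars give, for each of 48 pathway lists, the percent of tested members called higher (red, right) and called lower (blue, left) in LF+CR, with the number tested in brackets. Dotted lines mark the shares of all genes, 2.3% higher and 3.27% lower. Lipid synthesis stands at the top and the male-biased genes, with 11 of 18 members lower, at the bottom.

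Male-biased genes fell and some female-biased genes rose. Of 18 measured male-biased genes 11 fell and none rose, with a list median of -1.07, and 4 of 17 female-biased genes rose while none fell, with a median of 0.37. Slco1a1, an organic anion transporter, read 1302, 1163 and 2103 on the LF arrays and 116, 82.4 and 105 on the LF+CR arrays (log2 fold change -3.68, SE 0.37, adjusted p = 4.1e-05). Elovl3 read 3250.2, 2485 and 2804 on the LF arrays and 299, 72.3 and 194 on the LF+CR arrays (log2 fold change -3.98, SE 0.47, adjusted p = 0.00014). Cyp4a12a, a fatty acid hydroxylase of male liver, read 1942, 2035 and 2428 on the LF arrays and 197, 405 and 184 on the LF+CR arrays (log2 fold change -3.03, SE 0.53, adjusted p = 0.003). In these 3 genes the groups were far apart, and LF+CR 2 was the lowest array for Slco1a1 and Elovl3 and the highest restricted one for Cyp4a12a.

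Hsd3b5, a steroid dehydrogenase of male liver, read 243, 884 and 1936 on the LF arrays and 78.3, 69.8 and 70.6 on the LF+CR arrays. The restricted arrays were all below the dim threshold, so that it was at least 8.05-fold lower (adjusted p = 0.0031), and among the LF mice LF 1 was far below LF 3. The pheromone carrier gene Mup10 read 631, 1205 and 1031 on the LF arrays and 149.8, 54.7 and 155 on the LF+CR arrays (log2 fold change -2.90, SE 0.33, adjusted p = 0.00013). Mup5, in no list, read 1799, 2127 and 1894 on the LF arrays and 523, 230.2 and 583 on the LF+CR arrays (log2 fold change -2.18, SE 0.24, adjusted p = 7.9e-05), with LF+CR 2 lowest in both. Mup3 read 10355, 10538 and 10824 on the LF arrays and 7893, 2692 and 8395 on the LF+CR arrays and missed the threshold (log2 fold change -0.91, SE 0.28, adjusted p = 0.07). Probe sets of the Mup, Cyp2b, Gstm and Slc22a families can share sequence, so that their members are not fully told apart. Cyp7b1, which hydroxylates oxysterols, read 2971, 2972 and 3309 on the LF arrays and 1005, 747 and 953 on the LF+CR arrays (log2 fold change -1.77, SE 0.18, adjusted p = 4.1e-05). Cyp2d9, a steroid hydroxylase, and Susd4, a complement inhibitor, fell by 1.03 and 1.10 (adjusted p = 0.00015 and 0.0034). Ugt2b38 fell by 0.41, and without LF 1, LF 3, LF+CR 1, LF+CR 2 or LF+CR 3 the call was lost (adjusted p up to 0.18).

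Among female-biased genes, Cyp2b9 read 189, 432 and 227 on the LF arrays and 3055, 1607 and 2785 on the LF+CR arrays (log2 fold change 3.10, SE 0.27, adjusted p = 9.0e-06). Cyp2b13 read 77.3, 80 and 71.3 on the LF arrays and 754, 270.2 and 907 on the LF+CR arrays, with all LF arrays below the dim threshold, and was at least 6.11-fold higher (adjusted p = 0.00015). Slc22a27, an organic anion transporter, read 291, 144 and 117 on the LF arrays and 783, 1101 and 754 on the LF+CR arrays (log2 fold change 2.24, SE 0.27, adjusted p = 0.00017). The groups were far apart in all 3 genes, with LF+CR 2 the lowest restricted array for both P450 genes and the highest for Slc22a27. Slc22a26 rose by 0.96 (adjusted p = 0.0081). Fmo2, a flavin monooxygenase, was at 253, 189 and 299 on the LF arrays and 808, 341 and 462 on the LF+CR arrays and missed the threshold (adjusted p = 0.063). With 1 array left out, 10 to 12 male-biased and 4 to 6 female-biased genes were called. Without the arrays with pancreatic transcripts the counts were 9 and 3, and with only the groups compared 8 and 3.

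The growth hormone axis itself shifted less. Of 18 genes 2 fell and none rose, and the median was -0.22. Igfals, which carries IGF1 in a ternary complex, read 934, 904 and 859 on the LF arrays and 574, 390.3 and 642 on the LF+CR arrays (log2 fold change -0.76, SE 0.19, adjusted p = 0.027), and without LF 1, LF 2, LF 3, LF+CR 1 or LF+CR 2 the call was lost (adjusted p up to 0.12). Stat5a fell by 0.29, and without LF 1, LF 2, LF+CR 1 or LF+CR 3 the call was lost (adjusted p up to 0.19). Igf1 read 4429.9, 4500.2 and 4471 on the LF arrays and 4022, 3241 and 3956 on the LF+CR arrays and Ghr, the growth hormone receptor, 3805, 3666 and 4032 on the LF arrays and 3315, 2577 and 3429.6 on the LF+CR arrays. Every restricted array was below every LF array for both, but neither passed (adjusted p = 0.1 and 0.054). Lifr, a cytokine receptor chosen after its values were seen, read 1247, 894 and 1309 on the LF arrays and 584, 359 and 624 on the LF+CR arrays (log2 fold change -1.13, SE 0.25, adjusted p = 0.015), and without LF 1, LF 3 or LF+CR 2 the call was lost (adjusted p up to 0.069).

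**Figure D4:**
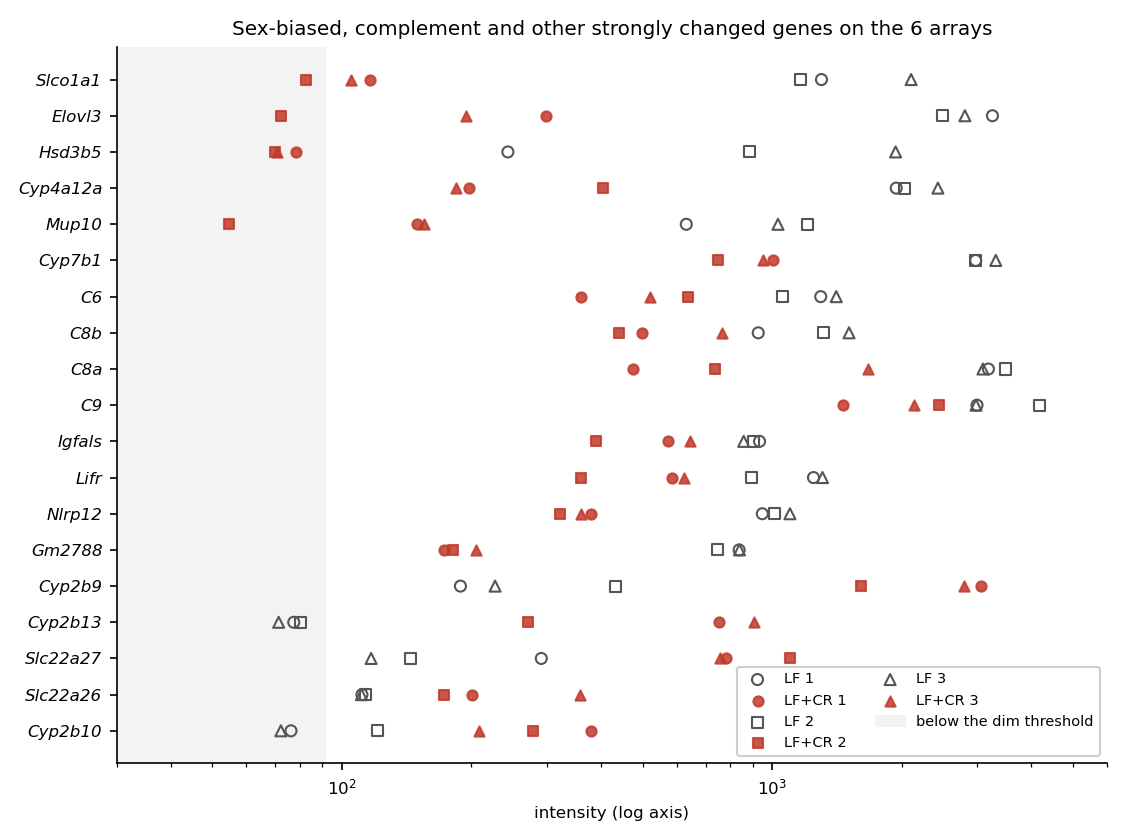
Each row is a gene and each symbol 1 array, placed at its intensity on a log axis. Open grey symbols are LF and filled red symbols LF+CR, with circles, squares and triangles for arrays 1, 2 and 3, and the shaded band marks intensities below the dim threshold. Red symbols lie left of grey ones from Slco1a1 to Gm2788 and right of them from Cyp2b9 to Cyp2b10.

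Complement genes fell in part. Of 27 complement and coagulation genes 5 fell and none rose, and 4 of the 5 (C6, C8a, C8b and C9) encode parts of the membrane attack complex, though C6 and C8b were also on the male-biased list. Of the other terminal components on the list, Hc, which encodes C5, and C8g had log2 fold changes of -0.21 and -0.20 and did not pass (adjusted p = 0.33 and 0.12). C8a read 3180.4, 3491 and 3089 on the LF arrays and 474, 735 and 1668 on the LF+CR arrays (log2 fold change -1.94, SE 0.27, adjusted p = 0.00057). C6 read 1297, 1055 and 1409 on the LF arrays and 360.2, 637 and 519.7 on the LF+CR arrays (log2 fold change -1.31, SE 0.18, adjusted p = 0.00042). C8b read 928, 1315 and 1509 on the LF arrays and 497, 440.3 and 763 on the LF+CR arrays (log2 fold change -1.13, SE 0.20, adjusted p = 0.0031). The groups were apart in each, with LF+CR 3 the highest restricted array for C8a and C8b. C9 read 2992, 4176 and 2977 on the LF arrays and 1465, 2438 and 2132 on the LF+CR arrays (log2 fold change -0.76, SE 0.16, adjusted p = 0.011), and without LF 2 the call was lost (adjusted p up to 0.052). The clotting factor F9 fell by 0.23, and without LF 1, LF 2, LF 3, LF+CR 1 or LF+CR 2 the call was lost (adjusted p up to 0.2). The fibrinogen chain Fgb stayed close, at 9888, 10363 and 10005 on the LF arrays and 10076, 9215 and 11317 on the LF+CR arrays (adjusted p = 0.97). Of 20 acute phase genes 1 passed, Saa4, which is made constitutively and read 2687, 2985 and 2177 on the LF arrays and 1253, 1109 and 1840.2 on the LF+CR arrays (log2 fold change -0.92, SE 0.18, adjusted p = 0.0063).

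Bile acid genes moved in both directions, with 2 of 18 higher and 3 lower. Cyp8b1, the sterol 12-alpha-hydroxylase that sets the share of cholic acid, read 2609, 2731 and 3354 on the LF arrays and 1045, 1587 and 855 on the LF+CR arrays (log2 fold change -1.35, SE 0.24, adjusted p = 0.0034). Akr1d1, a reductase of bile acid synthesis, rose by 0.52, and without LF 1, LF 2, LF+CR 1 or LF+CR 2 the call was lost (adjusted p up to 0.12). Slc51b, an exporter subunit, read 75.7, 82 and 82.2 on the LF arrays and 132, 188 and 98 on the LF+CR arrays, dim in LF and at least 1.44-fold higher (adjusted p = 0.0086), and Slc10a2, an uptake transporter, read 112, 112 and 103 on the LF arrays and 57.2, 87.8 and 68.7 on the LF+CR arrays, dim in LF+CR and at least 1.18-fold lower (adjusted p = 0.0037). Cyp7a1, the rate-limiting enzyme of bile acid synthesis, read 673, 1101 and 1299 on the LF arrays and 966, 2976 and 1109 on the LF+CR arrays, with LF+CR 2 alone high (adjusted p = 0.59).

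Detoxication genes rose in part, and here LF+CR 2 stood apart. Of 19 glutathione transferase genes 6 rose and none fell, with 16 of 19 log2 fold changes above 0 and a median of 0.42. Gstm3 read 1579.5, 1363 and 1358 on the LF arrays and 4072, 9869.8 and 2979 on the LF+CR arrays (log2 fold change 1.77, SE 0.39, adjusted p = 0.014), and the fit without LF+CR 2 gave 1.27, adjusted p = 0.054. For Gstm3, without LF 3 or LF+CR 2 the call was lost (adjusted p up to 0.054). Gstm5 read 424, 439 and 417 on the LF arrays and 671, 817 and 556 on the LF+CR arrays (log2 fold change 0.64, SE 0.13, adjusted p = 0.0085) and passed with each array left out. Gsta4 read 1115, 912 and 803 on the LF arrays and 1645, 2689 and 1377 on the LF+CR arrays (log2 fold change 0.95, SE 0.20, adjusted p = 0.0097), and without LF 3 the call was lost (adjusted p up to 0.051). Gsta2, Mgst3 and Gstm2 rose by 1.18, 0.70 and 0.71, and the calls were lost without LF 2, LF 3, LF+CR 1 or LF+CR 2. LF+CR 2 was the highest array for all 6. The list held 1 call without LF 3, 2 without LF+CR 2, and none without the arrays with pancreatic transcripts.

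Among 20 NRF2 targets and antioxidant genes Ces2g, a carboxylesterase, read 290.1, 399.7 and 356 on the LF arrays and 653, 586 and 522 on the LF+CR arrays (log2 fold change 0.73, SE 0.14, adjusted p = 0.0049). Nqo1, the quinone reductase that marks NRF2 activity, read 159, 189 and 168 on the LF arrays and 287, 617 and 240.4 on the LF+CR arrays (log2 fold change 0.96, SE 0.27, adjusted p = 0.046), and the fit without LF+CR 2 gave 0.57, adjusted p = 0.17. Here without LF 1, LF 2, LF 3, LF+CR 1 or LF+CR 2 the call was lost (adjusted p up to 0.17). No other member passed, and the median was 0.078. Of 18 receptors and targets of CAR, PXR and AHR 3 rose. Cyp2b10, the classical CAR target, read 76.1, 121 and 72.1 on the LF arrays and 379.6, 278 and 208 on the LF+CR arrays (log2 fold change 1.52, SE 0.34, adjusted p = 0.016), and without LF 1, LF 3 or LF+CR 1 the call was lost (adjusted p up to 0.079). Cyp2c55 read 129, 146 and 113 on the LF arrays and 268, 547 and 180.3 on the LF+CR arrays (log2 fold change 1.12, SE 0.25, adjusted p = 0.015), and without LF 3 the call was lost (adjusted p up to 0.065). Cyp2c38 rose by 0.66, and without LF 2, LF 3, LF+CR 1, LF+CR 2 or LF+CR 3 the call was lost (adjusted p up to 0.17). The receptors Nr1i3, Nr1i2 and Ahr did not pass, and without LF 3 the list held no call.

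Of 13 drug transporters 3 rose and 1 fell. Slc22a5, the carnitine transporter and a PPAR-alpha target, read 964, 640.3 and 696 on the LF arrays and 306, 355 and 458 on the LF+CR arrays (log2 fold change -1.01, SE 0.15, adjusted p = 0.0012). Abcc4, an exporter, read 104, 94.7 and 87.1 on the LF arrays and 171, 397 and 131 on the LF+CR arrays (log2 fold change 1.01, SE 0.27, adjusted p = 0.039), and without LF 1, LF 2, LF 3, LF+CR 1 or LF+CR 2 the call was lost (adjusted p up to 0.12). Slco1a4 and Abcb1a rose by 0.97 and 0.52, and both calls were lost without LF+CR 1. Ccnd1, which encodes cyclin D1, read 273, 283 and 286 on the LF arrays and 875, 2469.8 and 648 on the LF+CR arrays (log2 fold change 1.94, SE 0.41, adjusted p = 0.01). LF+CR 2 was again far above the others, but the fit without it gave 1.38, adjusted p = 0.033. Of the other 18 replication and proliferation genes Rrm1, a ribonucleotide reductase subunit, rose by 0.33 (adjusted p = 0.0095), and the list median was 0.20.

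Protein folding genes of the endoplasmic reticulum rose slightly. Of 25 chaperones and unfolded protein response genes 4 rose and none fell, with a median of 0.21, and these were Calr (0.40), Pdia6 (0.51), P4hb (0.25) and Selenos (0.39). Calr is a lectin chaperone, and Pdia6 and P4hb are disulfide isomerases. None of the 4 calls was left without LF 3 or LF+CR 2. The Pdia6 call was lost with any array of the LF and LF+CR groups left out (adjusted p 0.061 to 0.15). That of P4hb was lost with any of them but LF+CR 1. Hspa5, the main chaperone, read 3557, 3904 and 4486 on the LF arrays and 4296, 4624 and 4884 on the LF+CR arrays with overlap (adjusted p = 0.49). The following 7 genes of protein import and glycosylation at the endoplasmic reticulum are on no list and were picked because they were higher, so that they do not speak for those processes as a whole. The channel subunit Sec61a1 read 1185, 1130.2 and 1182 on the LF arrays and 1573, 1807 and 1554 on the LF+CR arrays (log2 fold change 0.49, SE 0.10, adjusted p = 0.0068), and the signal peptidase subunit Spcs3 read 609, 648 and 684 on the LF arrays and 858, 921 and 916 on the LF+CR arrays (log2 fold change 0.47, SE 0.06, adjusted p = 0.00042). The groups were apart for both. Ssr3, Ddost and Serp1 rose by 0.45, 0.41 and 0.46 and passed with each array left out, while Stt3a (0.47) and Rpn1 (0.43) lost the call without LF+CR 2. In the integrated stress response Psat1 of serine synthesis rose by 0.46 (adjusted p = 0.01), and Atf5 fell by 0.74, but without LF 1, LF 2, LF 3, LF+CR 1 or LF+CR 2 the call was lost (adjusted p up to 0.13). Of 19 heat shock genes the mitochondrial chaperone Hspa9 rose by 0.41 and the cytosolic Hspa8 fell by 0.38 (adjusted p = 0.0033 and 0.0094).

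Amino acid and nitrogen genes shifted at single points. Of 24 amino acid catabolism genes Tat, Etnppl and Bckdhb rose and none fell, with a median of 0.039. Etnppl, a phospholyase of ethanolamine phosphate, read 897, 931 and 954 on the LF arrays and 1544, 1297 and 1540.5 on the LF+CR arrays (log2 fold change 0.64, SE 0.13, adjusted p = 0.0068), while another of its probe sets moved by -0.037. Bckdhb rose by 0.24, and without LF 1, LF 2, LF+CR 1, LF+CR 2 or LF+CR 3 the call was lost (adjusted p up to 0.17). Of 15 urea cycle genes Cps1, which takes up ammonia, read 7545, 8238 and 8765 on the LF arrays and 10610.2, 10579 and 9864 on the LF+CR arrays (log2 fold change 0.34, SE 0.08, adjusted p = 0.015), and without LF 1 or LF+CR 1 the call was lost (adjusted p up to 0.066). Of 13 periportal genes Hsd17b6, a retinol and steroid dehydrogenase, read 992, 1038 and 1183 on the LF arrays and 3305, 2470.3 and 3201 on the LF+CR arrays (log2 fold change 1.46, SE 0.22, adjusted p = 0.0011), and Etnppl is on this list too. None of 15 pericentral genes passed, and Cyp2e1, their most abundant member here, read 12739.5, 12047 and 12786 on the LF arrays and 12002, 10680.1 and 12331 on the LF+CR arrays with overlap.

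Secreted factors and hormones of the liver gave 2 falls among 16. Inhbe, an inhibin chain, read 534, 708 and 509 on the LF arrays and 181, 239.8 and 387 on the LF+CR arrays (log2 fold change -1.12, SE 0.22, adjusted p = 0.0063). Serpina12, which encodes vaspin, read 913, 1312 and 1583 on the LF arrays and 466, 236 and 229.9 on the LF+CR arrays (log2 fold change -2.01, SE 0.50, adjusted p = 0.026), and without LF 2, LF 3, LF+CR 2 or LF+CR 3 the call was lost (adjusted p up to 0.098). Fgf21, a fasting hormone, read 533, 182 and 174 on the LF arrays and 108, 317 and 174 on the LF+CR arrays, with overlap (adjusted p = 0.68). Dio1, which activates thyroid hormone and was chosen after its values were seen, read 1590.1, 1696 and 1571 on the LF arrays and 742, 435 and 981 on the LF+CR arrays (log2 fold change -1.23, SE 0.19, adjusted p = 0.0012). Of 19 circadian clock genes Nfil3 alone passed, at 552, 306 and 224 on the LF arrays and 118, 119 and 212 on the LF+CR arrays (log2 fold change -1.14, SE 0.32, adjusted p = 0.046), and without LF 1, LF 2, LF+CR 1 or LF+CR 2 the call was lost (adjusted p up to 0.18).

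The genes of the respiratory chain, protein synthesis and protein breakdown changed little. Of 29 oxidative phosphorylation genes Ndufv1, Ndufs1 and Cyc1 rose, by 0.21, 0.30 and 0.22, and all 3 calls were lost without LF 2 or LF+CR 1. Of 23 mitochondrial ribosomal protein genes Mrps27 and Mrps28 rose, by 0.29 and 0.35, and the second call was lost with any array other than LF 2 left out. None of 22 cytosolic ribosomal protein genes passed. Psmb3 was the single proteasome subunit of 29 that passed (log2 fold change 0.22), and without LF 2, LF 3, LF+CR 1 or LF+CR 2 the call was lost (adjusted p up to 0.082). Of 23 lysosome and autophagy genes Lamp2 fell by 0.27 (adjusted p = 0.0054), though its other probe sets moved by -0.20, 0.031 and -0.042. Map1lc3b fell by 0.23, but without LF 1, LF 3, LF+CR 1 or LF+CR 2 the call was lost (adjusted p up to 0.13). Of 18 genes of sirtuins and NAD metabolism Nadsyn1 and Nmnat1, both of NAD synthesis, rose by 0.39 and 0.21. Those calls were lost without LF+CR 1. Pemt of phosphatidylcholine synthesis (0.21) and Adh1 (0.20) were the only members of their lists that passed, and both calls were lost without LF 2, LF 3, LF+CR 1 or LF+CR 2. The Pemt call was also lost without LF 1 or LF+CR 3.

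Markers of other cell types were measured beside these results. Over 13 lists of cell type markers 1 hepatocyte gene, Cps1, and 1 erythroid gene, Alas2, passed. Alas2, the heme synthesis enzyme of red cell precursors, read 815, 995 and 864 on the LF arrays and 375, 456 and 393 on the LF+CR arrays (log2 fold change -1.10, SE 0.10, adjusted p = 9.1e-06), and the other measured erythroid genes, Hba-a1 and Slc4a1, had log2 fold changes of 0.10 and 0.11. None of 12 Kupffer cell, 9 recruited macrophage, 12 endothelial, 10 stellate cell or 8 T and NK cell markers passed. Of these 6 arrays, LF+CR 2 had the highest sums of the Kupffer cell, recruited macrophage and stellate cell lists. The same held for the cholangiocyte, T and NK cell and adipocyte lists. The summed intensity of the Kupffer cell list was 14856 there, 8530 and 8605 on the other restricted arrays and 7139 to 11764 in LF, and that of the recruited macrophage list was 6114 on LF+CR 2 and 2823 to 3551 in LF. The part of the cell types of all these lists in the glutathione transferase, Nqo1, Ccnd1, Scd2 and Lpl values of LF+CR 2 was not tested. None of 8 MHC class II genes and 19 extracellular matrix genes and 1 of 25 interferon-stimulated genes passed, Psmb9, which fell by 0.74 with overlapping groups, and without LF 2, LF 3, LF+CR 1 or LF+CR 3 the call was lost (adjusted p up to 0.097). None of 18 iron and metal genes passed.

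Of the called genes 647 of 791 (81.8%) were on no list, against 93.7% of all genes tested. Nlrp12, an innate immune receptor, read 949, 1012 and 1099.6 on the LF arrays and 379, 322 and 360.1 on the LF+CR arrays and had the smallest p-value of the comparison (log2 fold change -1.49, SE 0.09, adjusted p = 5.6e-07). Gm2788, a predicted gene, read 838, 745 and 839 on the LF arrays and 172, 181 and 205 on the LF+CR arrays (log2 fold change -2.03, SE 0.16, adjusted p = 3.9e-06). Uxt, a chaperone-like cofactor, read 741, 728 and 731 on the LF arrays and 362, 343 and 358 on the LF+CR arrays (log2 fold change -1.02, SE 0.09, adjusted p = 1.8e-05). In these 3 genes the values within a group were close together and the groups far apart. Tnfaip8l1 fell by 1.29, Ankrd46 by 0.78 and Tmem19 by 0.84, with adjusted p of 4.1e-05, 5.6e-05 and 0.00013. Rdh11, a retinol dehydrogenase and SREBP target, read 260.2, 202 and 243 on the LF arrays and 911, 794 and 640.3 on the LF+CR arrays (log2 fold change 1.66, SE 0.16, adjusted p = 3.3e-05), and Steap2, a metalloreductase, read 167, 130.1 and 126 on the LF arrays and 340.3, 354 and 360.5 on the LF+CR arrays (log2 fold change 1.24, SE 0.14, adjusted p = 7.9e-05). D130043K22Rik rose by 0.93 (adjusted p = 0.00018). Pimreg, a mitotic regulator, read 385, 510.2 and 633 on the LF arrays and 70.4, 55.3 and 75.8 on the LF+CR arrays, below the dim threshold on all restricted arrays, and was at least 5.38-fold lower (adjusted p = 0.00024). Aqp3, a water and glycerol channel chosen after its values were seen, read 199, 333 and 326 on the LF arrays and 61.3, 45 and 68.1 on the LF+CR arrays and was at least 3-fold lower (adjusted p = 0.00067). Krt77 read 96.2 to 100.03 on the LF arrays and 71.9, 72.4 and 72.8 on the LF+CR arrays and was at least 1.06-fold lower (adjusted p = 0.00024).

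For several of these genes the probe sets did not move together. Ptbp1, a splicing factor, read 2788, 3765 and 3796 on the LF arrays and 638, 366 and 716 on the LF+CR arrays on its brightest probe set (log2 fold change -2.60, SE 0.29, adjusted p = 1.0e-04), while its other measured probe sets moved by 0.12 and 0.098. Sppl3, an intramembrane protease, fell by 1.78 against -0.027 and 0.070 on the others, Man2b1, the lysosomal mannosidase, by 1.56 against -0.017, and Abhd13 by 0.63 against 0.038, 0.048 and -0.13. Further probe sets of Steap2 rose by 0.17 to 0.42 only. For Fdps, Acly, Acsl3, Crot and Rad51b a probe set close to the dim threshold moved by 0.047, 0.019, -0.0025, 0.022 and 0.069. Lifr moved by -0.24 and -0.10 on its other probe sets, against -1.13. Aqp3 had a mean of 161 in LF and 145 in LF+CR on another probe set, a shift of -0.14, against the bound given above. A further probe set each of Dlat, Elovl6, Cyp51 and Mgst3 rose by 0.33, 0.37, 0.28 and 0.22, each well below the change given. Such a probe set of Thrsp, Idh2, Acacb, Rpn1, Stt3a and Nmnat1 moved by 0.0069, 0.019, 0.015, 0.011, 0.036 and 0.063. For Hspa8 and Map1lc3b it moved by -0.12 and -0.025. Some of these genes also had probe sets that moved about as far as the brightest. These were at 1.11 for Dlat, 1.75 for Elovl6, 1.76 for Cyp51, 1.97 for Thrsp and 0.57 for Stt3a. They were at 0.44 to 0.51 for Rpn1, 1.96 to 2.28 for Acly, 1.58 for Acsl3 and -0.42 for Hspa8. Map1lc3b had others at -0.29 and -0.11. For all these genes the values given are those of the brightest probe set.

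The response was then compared with that to restriction on the high-fat diet, which was measured against its own control mice. There 862 genes passed (6.07%), 500 higher (3.52%) and 362 lower (2.55%). Of the 791 genes called on the low-fat diet 167 were also called on the high-fat diet, which is 21.1% of the low-fat calls and 19.4% of the high-fat calls. In 94 of the 167 the directions were the same, 51 higher and 43 lower, and in the others opposite, with 28 higher on low fat and lower on high fat and 45 the reverse. The difference between the responses passed for 816 genes (5.75%), 340 positive (2.39%) and 476 negative (3.35%), and for 344 of the 791 (43.5%). With each array centred on its median, 54.8% of the difference calls were positive, against 41.7% without centring, and 36.0% of the high-fat calls were higher, against 58.0%.

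Cholesterol synthesis rose on both diets, with 15 of 18 genes higher on high fat and no called difference in either list. Sqle changed by 2.57 on low fat and 1.92 on high fat (difference 0.65, SE 0.43, adjusted p = 0.37). A missed threshold does not show that the responses were equal. Fatty acid synthesis differed. Of its 13 genes 4 rose on high fat and 6 had a called positive difference. Fasn was at 655 ± 138 in LF, 3947 ± 1017 in LF+CR, 1179.8 ± 232 in HF and 1764 ± 87.1 in HF+CR, so that it rose by 2.55 on low fat and was at 0.59 on high fat (difference 1.96, SE 0.27, adjusted p = 0.00055). Acly rose on both diets, by 2.08 and 0.93, and more on low fat (difference 1.16, SE 0.20, adjusted p = 0.0036). Elovl6, Acaca and Pgd had high-fat responses of -0.03, 0.02 and -0.28 that did not pass, and called differences of 1.87, 1.45 and 1.69.

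Citric acid cycle and glycolysis genes differed as well. Of the 20 genes of the citric acid cycle 7 had a called positive difference, such as Dlat (difference 1.03, SE 0.19, adjusted p = 0.0049) and Idh3a (difference 0.79, SE 0.11, adjusted p = 0.00061), and on high fat 2 fell and none rose. Of the 15 glycolysis and glycogen genes 6 had one, among them Pklr (1.36, SE 0.27, adjusted p = 0.0093) and Gbe1 (1.13, SE 0.16, adjusted p = 0.00086). Mpc1 rose on low fat and was at -0.18 on high fat with an adjusted p of 0.046 (difference 0.46, SE 0.07, adjusted p = 0.0015). Of 19 glutathione transferases 11 had a called positive difference, led among the genes given here by Gsta2 (2.72, SE 0.43, adjusted p = 0.0016). On high fat 7 of 16 peroxisomal and 8 of 16 droplet genes were lower, against 6 and 5 on low fat, and of the 18 mitochondrial oxidation genes 2 were lower, against 5 on low fat.

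Sex-biased genes moved in opposite directions. On high fat 9 of 18 male-biased genes rose and none fell, 6 of 17 female-biased genes fell and none rose, and the difference passed for 14 and 6 of them. Slco1a1 was at 1523 ± 507 in LF, 101 ± 17.1 in LF+CR, 110.4 ± 7.46 in HF and 2449.9 ± 54.2 in HF+CR (difference -7.96, SE 0.53, adjusted p = 1.5e-06). Hsd3b5 was at 1021 ± 855 in LF, 72.9 ± 4.72 in LF+CR, 72.9 ± 2.58 in HF and 3271 ± 819.6 in HF+CR. Its LF+CR and HF arrays were all below the dim threshold, so that the difference is a bound, -8.15 or further from 0 (adjusted p = 2.0e-05). Cyp2b9 was at 282 ± 131 in LF, 2482 ± 770.1 in LF+CR, 1819 ± 220.4 in HF and 728 ± 135 in HF+CR (difference 4.41, SE 0.38, adjusted p = 9.2e-06). In Slco1a1 the HF mean was near the LF+CR mean, and in both Slco1a1 and Hsd3b5 the HF+CR mean was above the LF mean. Slc22a27, Rad51b and Tceal8 had positive differences of 4.51, 3.58 and 3.08, although Rad51b and Tceal8 did not pass on low fat. Cyp2b13 was dim in LF and HF+CR, and its difference was at least 4.46. Elovl3 and Mup10 had negative differences of -5.44 and -4.04, and Pimreg, dim in LF+CR, had a bound of -4.11. These genes were named for the size of their fitted differences, and those with a bound have no place in that order.

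Of 27 complement and coagulation genes 5 fell on low fat and 3 rose on high fat, with 7 called negative differences, as in C6 (-2.58, SE 0.25, adjusted p = 3.3e-05), C8b (-2.64, SE 0.28, adjusted p = 7.3e-05) and C8a (-2.71, SE 0.39, adjusted p = 0.00081). Egfr, which was not called on low fat (-0.94, and -0.081 to -0.76 on its other probe sets), rose by 2.40 on high fat (difference -3.33, SE 0.48, adjusted p = 0.00084). Alas2 fell on low fat and rose by 0.49 on high fat (difference -1.59, SE 0.14, adjusted p = 9.2e-06). Nlrp12 and Gm2788 had high-fat responses of 0.03 and 0.01, and the differences of -1.52 and -2.04 passed (adjusted p = 9.2e-06 and 9.7e-05). Tat, Cps1 and the endoplasmic reticulum genes Calr and Pdia6 rose on both diets, and their differences, the largest -0.18 for Pdia6, did not pass. Leaving out 1 array of the 4 groups gave 386 difference calls at the lowest (without HF 1) and 1036 at the highest (without LF+CR 3), with 520 without LF+CR 2 and 524 without LF 3.

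**Figure D5:**
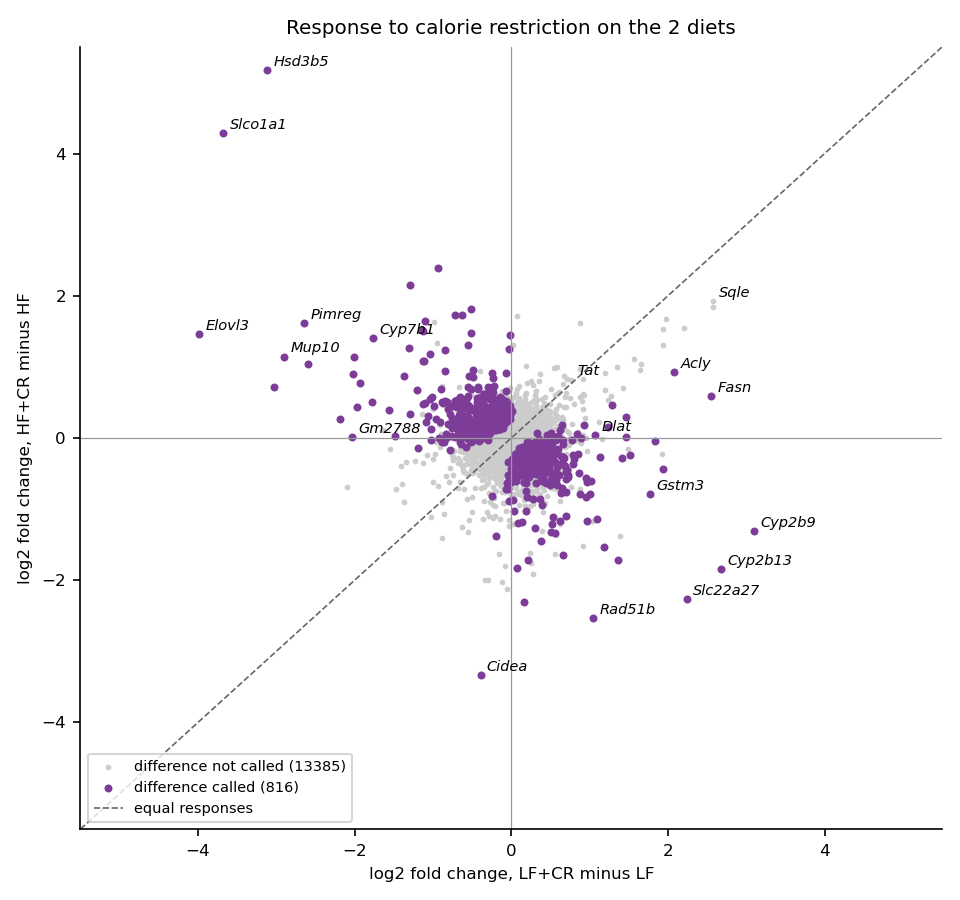
Each point is 1 of 14201 genes, placed by its log2 fold change to restriction on the low-fat diet (horizontal) and on the high-fat diet (vertical), and the dashed line marks equal responses. Purple points are the 816 genes with a called difference. Slco1a1 and Hsd3b5 fell on low fat and rose on high fat, Cyp2b9, Cyp2b13 and Slc22a27 did the reverse, and Sqle lies near the line. Genes below the dim threshold in a group, such as Hsd3b5 and Cyp2b13, are placed at their fitted values, which are not exact.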

How the data were processed

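Liver RNA was measured on Affymetrix arrays with probe sets for mouse genes, 1 array per mouse. The authors deposited 1 linear intensity for each probe set, between 31.08 and 21654 on the 6 arrays. Array means were near equal (304.9 to 306.8), so the deposited intensities had been scaled. Tool, method and build were not given in the sources used here. Of 45101 probe sets 34945 carried 1 gene symbol in the platform annotation, 932 several and 9160 none, and 64 were controls. Each of 18193 genes was represented by its probe set with the highest mean, and 14201 genes above the 40th percentile of an array on at least 3 arrays were tested. log2(intensity + 16) was fitted with limma 3.58.1 in R 4.3.3 on all 18 arrays, with 1 mean per group, no pairing (12 residual and 3.64 prior degrees of freedom) and Benjamini-Hochberg adjustment over the 14201 genes. The pipeline was tested on simulated data. Adjusted p-values without another name come from this fit, and the SE is moderated. On the log2 scale the offset makes changes of dim genes look smaller. A gene dim on all arrays of 1 group is given as "at least N-fold", the brighter mean over the dim threshold. The labels do not say that replicate numbers mark pairs, and same-numbered arrays did not deviate together.

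Lists of 1009 genes (48 pathway and 13 cell type lists) are described by counts and medians. Genes named are the 10 largest rises and falls without overlap, up to 4 called members per list and direction, the 15 smallest p-values outside lists and the 5 largest differences each way, and further genes chosen after their values were seen. The lists and members were chosen with earlier results of these data known. With 3 arrays against 3 the number of arrays limits the precision, and p-values measure the spread between these mice. A test on a single gene by exact permutation could not go below p = 0.1 and was not used. Promoters came from RefSeq. Alternatives were other normalizations, offsets, filters, probe set choices, variance models, sample sets, the block, a clock covariate and each array left out.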

Additional observations from a re-analysis of the deposited data

Results flagged for a closer look

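The values below are those for which the response to restriction differed between the low-fat and the high-fat diet by the test of the difference itself. It passed for 816 genes. Each value is the fitted log2 fold change on low fat minus that on high fat. For Hsd3b5 (dim in LF+CR and HF), Cyp2b13 (dim in LF and HF+CR), Pimreg and Aqp3 (dim in LF+CR) the fitted value is not exact. With the dim groups set to the dim threshold, the bounds are -8.15 for Hsd3b5, 4.46 for Cyp2b13, -4.11 for Pimreg and -2.80 for Aqp3.

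Among male-biased genes the difference was -7.96 for Slco1a1, -8.29 as fitted for Hsd3b5, -5.44 for Elovl3, -4.04 for Mup10 and -3.17 for Cyp7b1. Among the complement genes it was -2.58 for C6, -2.64 for C8b, -2.71 for C8a and -0.96 for C9. Outside these lists it was, as fitted, -4.25 for the mitotic regulator Pimreg and -3.14 for the glycerol channel Aqp3, and -2.65 for the cytokine receptor Lifr, -2.04 for Gm2788, -1.60 for Uxt and -1.52 for Nlrp12.

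The genes with positive differences included the female-biased Slc22a27 (4.51), Cyp2b9 (4.41) and, as fitted, Cyp2b13 (4.52), and Rad51b (3.58) and Tceal8 (3.08). A positive difference concerns the responses to restriction and not the levels on the 2 diets. Of lipid and carbon metabolism, the difference was 1.96 for Fasn, 1.16 for Acly, 0.78 for Insig1, 1.36 for Pklr, 1.13 for Gbe1, 1.03 for Dlat, 0.79 for Idh3a and 0.46 for Mpc1. Of detoxication and growth, it was 2.56 for Gstm3, 1.51 for Gsta4, 2.13 for Nqo1 and 2.38 for Ccnd1. For these last 4 genes LF+CR 2 was the highest restricted array. Without it the log2 fold change on low fat was 1.27, adjusted p = 0.054 for Gstm3, 0.68, adjusted p = 0.031 for Gsta4, 0.57, adjusted p = 0.17 for Nqo1 and 1.38, adjusted p = 0.033 for Ccnd1, so that the calls of Gstm3 and Nqo1 were lost.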

How the results depend on the processing

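The count of 791 genes for LF+CR against LF lay between 579 and 919 under quantile normalization, median centring, other offsets, filters and probe set choices, a trended variance, the replicate block (632), the clock covariate and the fit without LF+CR 2, HF 1 and HF+Ex 3, which lie far out on the first principal component (579). It was 1435 with array weights, 189 with only the groups compared and 240 without the 4 arrays with pancreatic transcripts. Leaving out 1 array gave 446 (without LF+CR 1) to 915, with 477 without LF 3. The count of differences between the diets (816) was 1592 with array weights, 287 without the pancreatic arrays, 371 without the 3 far arrays and 1391 with the clock covariate, 612 with the replicate block, and 386 (without HF 1) to 1036 with 1 array left out, with 520 without LF+CR 2 and 524 without LF 3. For HF+CR against HF (862) the counts were, in the same order, 2174, 517, 549, 1374 and 649, and 284 (without HF 1) to 910 with 1 array left out, with 343 without HF+CR 2, 365 without HF+CR 1 and 410 without HF 3. The fits of fewer arrays have less to estimate the spread from, and the cause of the other shifts was not tested. Median centring moved the high-fat calls from 58.0% to 36.0% higher and the difference calls from 41.7% to 54.8% positive, and the fit of the groups compared gave 43.1% higher on high fat. The fit without the 3 far arrays gave 46.4% higher on high fat and 50.1% positive differences. The labels do not say whether the replicate numbers pair the arrays. The r of same-numbered deviations was -0.0964, -0.00245 and -0.0356, against -0.146 to 0.261 for unlike numbers. So few correlations cannot settle the question. The block moved no count by over 1.5 times.

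Of 184 named called genes 69 lost the call under none of the 21 alternatives that concern this comparison (68 had a value under all 21), and none changed direction. Fitting only the compared groups ended 96 of these calls, leaving out the pancreatic arrays 92, and leaving out 1 array between 20 (LF+CR 3) and 52 (LF+CR 1). Genes below the dim threshold have only bounds, and small changes are limited by the median SE of 0.085.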

Other observations

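Further genes on no list, chosen after their values were seen, also moved without overlap. Selenbp1, a selenium-binding protein and methanethiol oxidase, read 2065, 2438 and 2342 on the LF arrays and 3813, 3189 and 3737 on the LF+CR arrays (log2 fold change 0.65, SE 0.09, adjusted p = 0.00033). Coq8b, a kinase-like protein of coenzyme Q synthesis, read 173, 178 and 179 on the LF arrays and 235, 284 and 266 on the LF+CR arrays (log2 fold change 0.52, SE 0.07, adjusted p = 0.00024). Both were higher on every restricted array. Pfkp and Aldoc, isoforms of phosphofructokinase and aldolase that are not the main liver forms, rose by 0.55 and 0.81 (adjusted p = 0.00091 and 0.0046). Maoa, which oxidises biogenic amines, rose by 0.44 (adjusted p = 0.0018). Further probe sets of Pfkp and Maoa moved by 0.10 and 0.082.

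Among the falls, Slc25a42, the mitochondrial carrier of coenzyme A, read 674, 601 and 573 on the LF arrays and 319.5, 273 and 391 on the LF+CR arrays (log2 fold change -0.89, SE 0.12, adjusted p = 0.00052), while another of its probe sets moved by 0.027. Pim1, a kinase gene induced by STAT5, read 351, 370.3 and 339 on the LF arrays and 154, 181 and 206 on the LF+CR arrays (log2 fold change -0.92, SE 0.12, adjusted p = 0.00024). Mbl1, a mannose-binding lectin that starts complement activation, read 2145, 2229 and 2015 on the LF arrays and 1328, 1161 and 1577 on the LF+CR arrays (log2 fold change -0.66, SE 0.10, adjusted p = 0.00096). In all 3 genes each restricted array was below each LF array. Grhpr, which reduces glyoxylate, fell by 0.44 (adjusted p = 0.0014). Tnfrsf11b, which encodes osteoprotegerin, read 123, 112 and 132 on the LF arrays and 68.3, 69.6 and 64.9 on the LF+CR arrays and was at least 1.31-fold lower (adjusted p = 0.00047). Another of its probe sets, too dim to pass the filter, moved the other way, by 0.32.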
